A study of Mus musculus with 18 samples.

Results

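The first day of osteogenic culture was examined in MC3T3-E1 cells by comparing the 6 RNA-seq libraries made at 24h with 3 libraries made at 0h, 9 of the 18 libraries of the series. MC3T3-E1 is an established line of mouse preosteoblasts from calvaria that can lay down mineralised matrix in culture. The study asked what silencing of Rcor2, which encodes a corepressor of the CoREST family, does to osteoblast differentiation. All cells carried a stably expressed short hairpin RNA: the control shScramble (genotype WT in the labels), or shRcor2-18 or shRcor2-20 against Rcor2 (genotype RCOR2 knockdown). Each construct gave 2 libraries at 24h and 1 used at 0h, labelled sample 2. Osteogenic medium was the growth medium, with 10% serum, to which 3 agents were added: 10 nM dexamethasone, 50 µg/ml ascorbic acid and 5 mM β-glycerophosphate. The protocols name harvests of growing cells (80% confluent), of confluent cells, and of cells kept in that medium for 24 hours or until day 14 or 21, whereas the titles give 0h, 24h and 7d, so the stage that 0h stands for is not given. Medium, time and cell density therefore cannot be told apart in this comparison, and nothing in the labels says that samples were separate cultures.

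Row names of the deposited table match their reads only in part, so 744 of its 40620 rows were used: the protein-coding genes from Mefv to Cbr3 on chromosome 16 (610) and from Ighmbp2 to Gpha2 on chromosome 19 (134). Inside these stretches, 30 of 30 genes used by nearly all cells, such as ribosomal proteins and respiratory chain subunits, reached 20 CPM (counts per 1000000), and 0 of 78 members of olfactory receptor, keratin-associated protein, protamine and similar tissue-restricted families did. CPM are relative to the counts of the stretches, after scaling by the trimmed mean of M-values (TMM). Sums over marker lists, the means of single markers given with them, and the CPM limit given for Serpind1 are without TMM. In the check above, made without TMM, the 30 genes had a median of 3486 CPM. They ran from 67.6 CPM, for Sod1, to 36334 CPM, so Sod1 was far below the median. Whether the row named Sod1 holds reads of Sod1 was not tested. The test covered 489 genes, 373 on chromosome 16 and 116 on chromosome 19; the other 255 rows were too low, among them 130 with no count in the 9 libraries. Type I collagen, osteocalcin, alkaline phosphatase and Runx2 lie outside the stretches, as does Rcor2. The row named Rcor2 held 202 to 242 CPM of the whole library with shScramble and 209 to 265 with the hairpins, and whether those reads come from Rcor2 was not tested.

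Osteogenic medium works through a glucocorticoid, which acts on transcription through its nuclear receptor, and through ascorbate and a phosphate source, which serve collagen maturation and mineral. Preosteoblasts then build a collagen matrix, which secreted proteases remodel. Wnt ligands act through frizzled and LRP co-receptors to favour bone formation, and Notch signalling through HES and HEY repressors holds back osteoblast maturation.

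Libraries held 3911277 to 6139315 counts at 24h and 3913874 to 4541758 at 0h, of which 474359 to 729687 and 461632 to 531697 fell in the stretches (11.7% to 12.1% and 11.7% to 12.5%). Sample 1 of each construct at 0h was left out: it had 19.2% to 19.8% of its counts there. Correlations across genes between these sample 1 libraries and the other 15 were 0.887 to 0.965, against 0.983 to 0.996 among the sample 1 libraries. The other 15 correlated with each other at 0.911 to 0.991, a range that overlaps the first. Of the 0h libraries used, shScramble stood apart in several genes below and was nearest to a 24h library (shRcor2-20 sample 1, r = 0.962). Every 24h library correlated best with a library of another construct. On the second principal component (26.01% of the variance) all 0h libraries, at 4.49 to 9.13, lay above all 24h libraries, at -6.22 to 0.60. The first (33.7%) did not separate the times.

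From 0h to 24h, 28 of the 489 genes changed, 12 upward and 16 downward (5.73%, 2.45% and 3.27% of the genes tested; edgeR quasi-likelihood test, Benjamini-Hochberg adjusted p below 0.05). The secreted protease Adamts1, the Wnt co-receptor Lrp5, the transcription factor Cebpd and the sarcomeric actinin Actn3 rose, and the Notch effector Hes1 fell. In 27 of the 28 the 24h libraries did not overlap the 0h libraries, the exception being Cpt1a. Over all genes tested, 77 (15.7%) did not overlap, 39 higher (7.98%) and 38 lower (7.77%). Most genes moved little: the median log2 change was 0.02, 259 genes had a positive and 230 a negative change, 85.1% of the genes lay within 0.5 on the log2 scale, and 10 of the called genes exceeded 2-fold, 6 upward and 4 downward. A replicate block tied libraries of the same sample number and construct across 0h, 24h and 7d. With it, 23 genes were called higher and 34 lower by edgeR, all 28 among them. With sample 2 alone and construct as the block, Adcy9, Smim11, Vasn and St6gal1 lost their call. Over the 9 libraries, construct plus time lost Adcy9, Cpt1a and St6gal1, and with the 24h samples of a construct summed it lost Adcy9, Cpt1a, Eva1c, Smim11 and Vasn. Without the shScramble library at 0h the count of higher genes was 7 and that of lower genes 17, with 20 of the 28 among them. In bulk RNA, more cells with a transcript and more transcript per cell cannot be told apart.

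**Figure D1:**
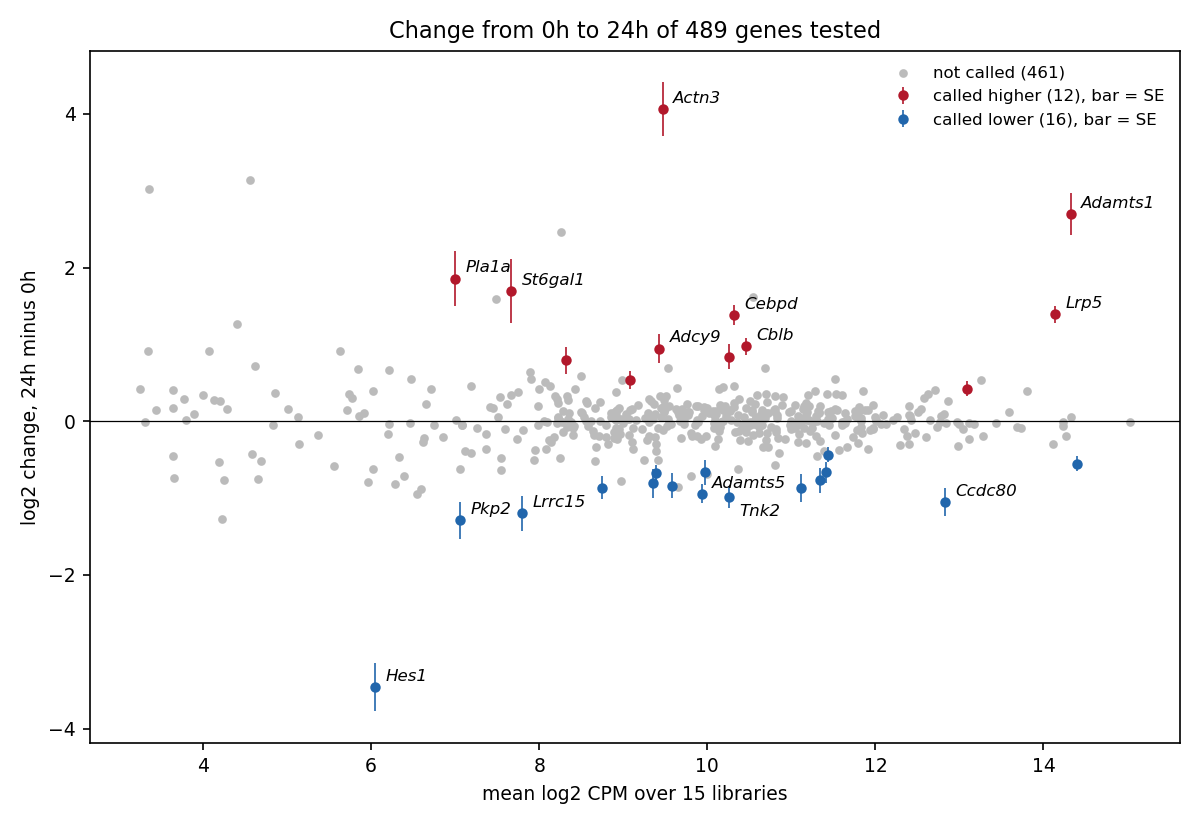
Log2 change from 0h to 24h (y axis) against mean log2 CPM over 15 libraries (x axis) for the 489 genes tested, with the 12 called higher in red, the 16 called lower in blue and bars for the standard error. Actn3 at 4.06, Adamts1 at 2.70 and Hes1 at -3.46 lie far from the bulk, whose median is 0.02.

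Adamts1, a secreted metalloprotease that cleaves the proteoglycans versican and aggrecan, rose in every 24h library. It stood at 1821, 3995 and 4447 CPM at 0h (shScramble, shRcor2-18 and shRcor2-20, the order used throughout) and at 21193 and 15372, 25685 and 24278, and 15178 and 23362 CPM at 24h (samples 1 and 2 of each construct in turn). The lowest 24h value was more than any 0h value, and shScramble at 0h was the lowest of all. The log2 change was 2.70 ± 0.27 (SE), 6.48-fold (edgeR adjusted p = 0.000226), and 2.29 without that library (adjusted p = 0.00283). Its neighbour in gene order, the aggrecanase gene Adamts5, moved the other way. Adamts5 had 1506, 1782 and 1901 CPM at 0h and 709 to 1209 CPM at 24h (median 852), with no overlap, a log2 change of -0.94 ± 0.13 (edgeR adjusted p = 0.0012). With sample 1 at 0h included the call of Adamts5 was lost, as were those of Efemp2, Phldb2 and St6gal1 (edgeR adjusted p between 0.116 and 0.52). The next coding gene, N6amt1, which encodes a methyltransferase that modifies a translation release factor, rose from 557, 722 and 817 CPM to between 1029 and 1494 CPM (median 1198), by 0.84 ± 0.16 on the log2 scale (edgeR adjusted p = 0.00995; 0.0632 without shScramble at 0h). These 3 genes are numbers 522, 523 and 524 in the order of the chromosome 16 stretch.

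**Figure D2:**
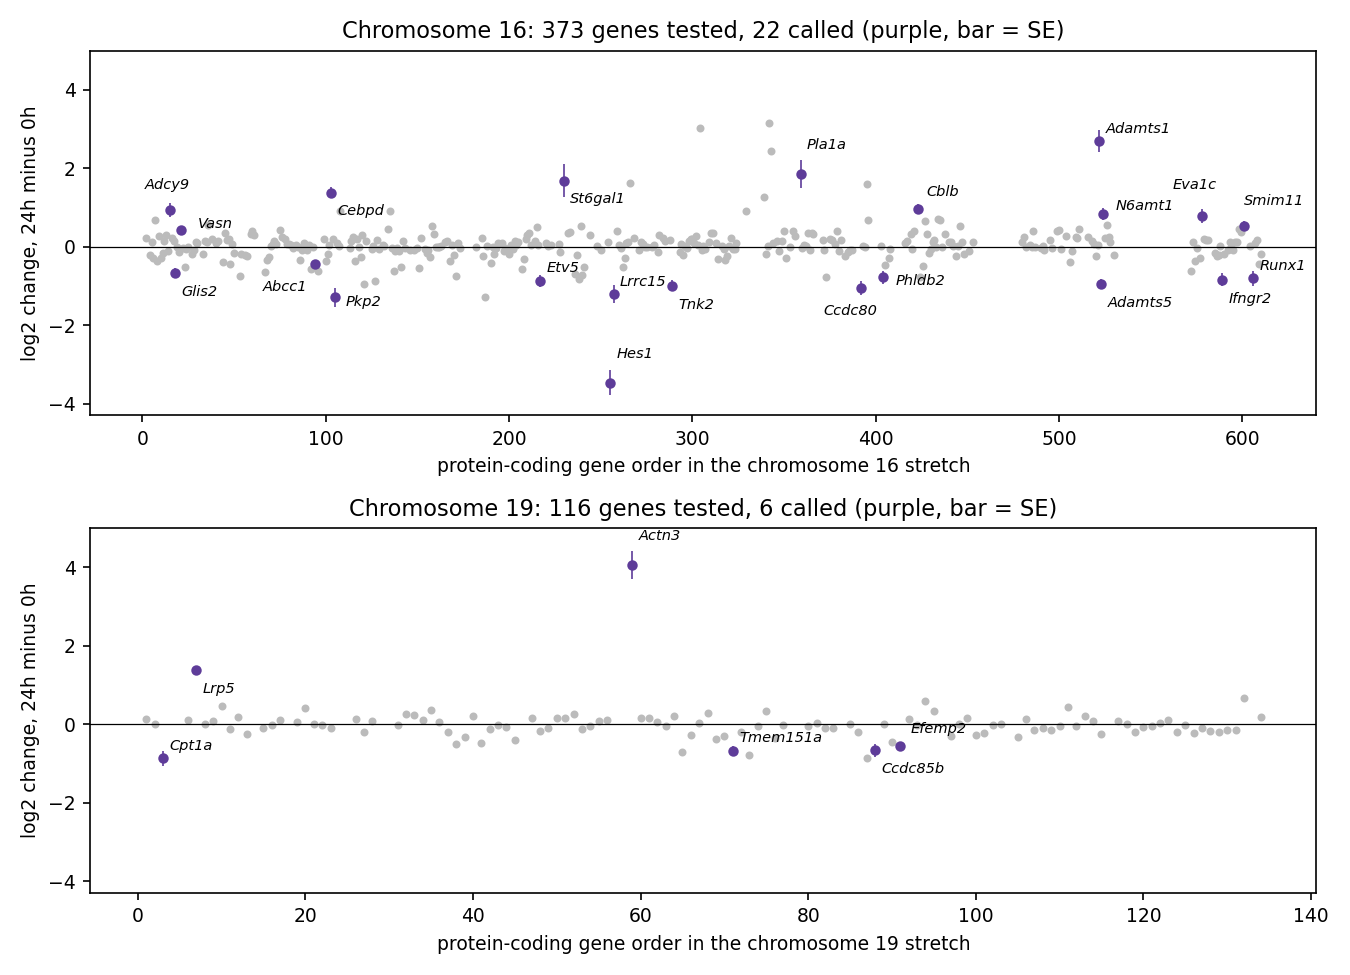
Log2 change from 0h to 24h (y axis) of each gene tested by its order in the chromosome 16 stretch (top) and the chromosome 19 stretch (bottom), with called genes in purple and bars for the standard error. The 22 called genes of chromosome 16 (5.90% of 373) and the 6 of chromosome 19 (5.17% of 116) are spread along both stretches, and Adamts1, Adamts5 and N6amt1 are the called genes that sit side by side.

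Promoter windows show what lies before the start of genes that moved. RefSeq windows on GRCm38.p6, from 250 bases before to 50 bases after an annotated start, were at hand for 18 of the 28 called genes (24 windows). Printed are the 4 genes whose windows hold the core of a cAMP response element, all of which rose, and Lrrc15, which fell and holds an AP-1 motif. This choice was made after the values were seen. St6gal1 also holds an AP-1 motif but rose (log2 change 1.69), and its windows are not printed. The printed genes therefore show no link between a motif and a direction. Capitals mark, on either strand, the cAMP response element core TGACG, the TATA box as TATAAA, the AP-1 motif TGANTCA and the GC box GGGCGG, and letters run 5′ to 3′ on the gene's strand. Adamts1 lies at chr16:85803064-85803363 (minus strand), N6amt1 at chr16:87353935-87354234 (plus), Eva1c at chr16:90830609-90830908 (plus), Adcy9 at chr16:4420449-4420748 (minus) and Lrrc15 at chr16:30283205-30283504 (minus).
Adamts1: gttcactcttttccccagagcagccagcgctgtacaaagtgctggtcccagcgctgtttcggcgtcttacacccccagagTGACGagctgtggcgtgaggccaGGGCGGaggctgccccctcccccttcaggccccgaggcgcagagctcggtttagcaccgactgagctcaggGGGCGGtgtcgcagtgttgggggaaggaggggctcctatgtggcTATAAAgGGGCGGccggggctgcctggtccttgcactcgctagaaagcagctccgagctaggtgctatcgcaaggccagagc
N6amt1: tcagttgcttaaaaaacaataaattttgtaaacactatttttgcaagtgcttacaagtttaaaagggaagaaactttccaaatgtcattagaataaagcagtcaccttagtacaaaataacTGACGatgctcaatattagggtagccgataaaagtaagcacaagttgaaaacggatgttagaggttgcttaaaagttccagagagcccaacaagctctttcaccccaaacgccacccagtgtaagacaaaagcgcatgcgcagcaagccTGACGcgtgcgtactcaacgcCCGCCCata
Eva1c: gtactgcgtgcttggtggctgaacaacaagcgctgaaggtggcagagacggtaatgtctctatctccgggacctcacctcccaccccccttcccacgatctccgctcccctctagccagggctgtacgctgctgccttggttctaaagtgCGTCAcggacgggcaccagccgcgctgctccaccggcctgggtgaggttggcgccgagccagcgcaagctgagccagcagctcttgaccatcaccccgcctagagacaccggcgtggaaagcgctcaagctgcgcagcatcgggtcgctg
Adcy9: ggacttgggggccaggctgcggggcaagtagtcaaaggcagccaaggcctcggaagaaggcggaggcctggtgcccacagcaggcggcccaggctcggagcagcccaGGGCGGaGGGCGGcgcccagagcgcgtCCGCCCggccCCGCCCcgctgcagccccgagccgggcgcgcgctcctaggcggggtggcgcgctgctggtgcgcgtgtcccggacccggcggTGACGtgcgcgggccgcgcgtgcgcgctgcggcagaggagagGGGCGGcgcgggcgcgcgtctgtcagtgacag
Lrrc15: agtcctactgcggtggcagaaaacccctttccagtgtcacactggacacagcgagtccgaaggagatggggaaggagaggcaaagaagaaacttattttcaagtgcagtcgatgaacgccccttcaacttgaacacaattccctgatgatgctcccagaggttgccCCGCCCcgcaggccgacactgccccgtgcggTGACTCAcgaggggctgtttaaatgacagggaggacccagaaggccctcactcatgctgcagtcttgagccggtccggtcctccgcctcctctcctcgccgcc
The window of Adamts1 was the single one among the 24 with TATAAA, 32 bases before the start, where 13.6% of all 32851 RefSeq windows of this length hold it. TGACG occurred in 4 of the 24 windows (20.8% of all windows), TGANTCA in those of Lrrc15 and St6gal1 (7.81%), and AGAACA, a part of the glucocorticoid receptor site, in that of Ccdc85b (18.97%). GGGCGG occurred in 18 windows (35.7% of all) and CCAAT in 12 (37.4%). The windows of called genes had a median GC content of 61.3%, against 52.7% for all windows. All windows include those of genes that were not tested here, so these shares do not set called genes against tested genes. Some genes, such as Efemp2 and St6gal1, gave several of the 24 windows, and windows of Efemp2 overlap each other. A match is a description of letters, not of a bound site. Lrp5, Hes1, Cebpd, Actn3, Adamts5, Ccdc80, Pla1a, Pkp2, Glis2 and Abcc1 had no window in the table.

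Lrp5, the co-receptor through which Wnt ligands act on bone mass, rose with little spread between the 24h libraries. Its level was 5376, 8212 and 8769 CPM at 0h and 18301 to 20060 CPM at 24h (median 19138). The 24h values span a narrow band, and shScramble was again the lowest at 0h. The log2 change was 1.39 ± 0.11, 2.62-fold (edgeR adjusted p = 4.99e-05), and 1.17 without shScramble at 0h (adjusted p = 0.000836). The other Wnt pathway members in the stretches gave no call: Dvl3, which relays the receptor signal, had a log2 change of -0.17 ± 0.11, Gsk3b, the kinase that marks β-catenin for loss, 0.00 ± 0.12, and the desumoylase gene Senp2 0.15 ± 0.09. So 1 of 4 Wnt list members passed upward and 0 downward, beside 2.45% and 3.27% of all genes tested, with a median of 0.08 on the log2 scale against 0.02 over all genes. The gene lists were chosen with results of these data known, and their counts are descriptions to be set beside those shares.

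Hes1, the helix-loop-helix repressor that Notch induces, had the largest fall of the 489 genes. It stood at 207, 241 and 193 CPM at 0h and at 13.9 and 26.9, 8.61 and 13.7, and 31.3 and 30.4 CPM at 24h. The groups were far apart, and the 0h libraries of the 3 constructs were close to each other. The 24h mean was 20.8 CPM, a level at which 1 library holds few counts, so the size of the fall is less certain than its direction. The log2 change was -3.46 ± 0.32, 11.01-fold lower (edgeR adjusted p = 8.34e-05), and between -3.64 and -3.32 when any 1 library was left out. Of the 4 Notch list members tested, Hes1 was the single call, beside 5.73% called among all genes tested. Poglut1, which puts glucose on Notch receptors, had a log2 change of 0.34 ± 0.13 (edgeR adjusted p = 0.18), the xylosyltransferase gene Xxylt1 -0.28 ± 0.11 (0.21), and the ubiquitin ligase gene Dtx3l -0.24 ± 0.20 (0.58).

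**Figure D3:**
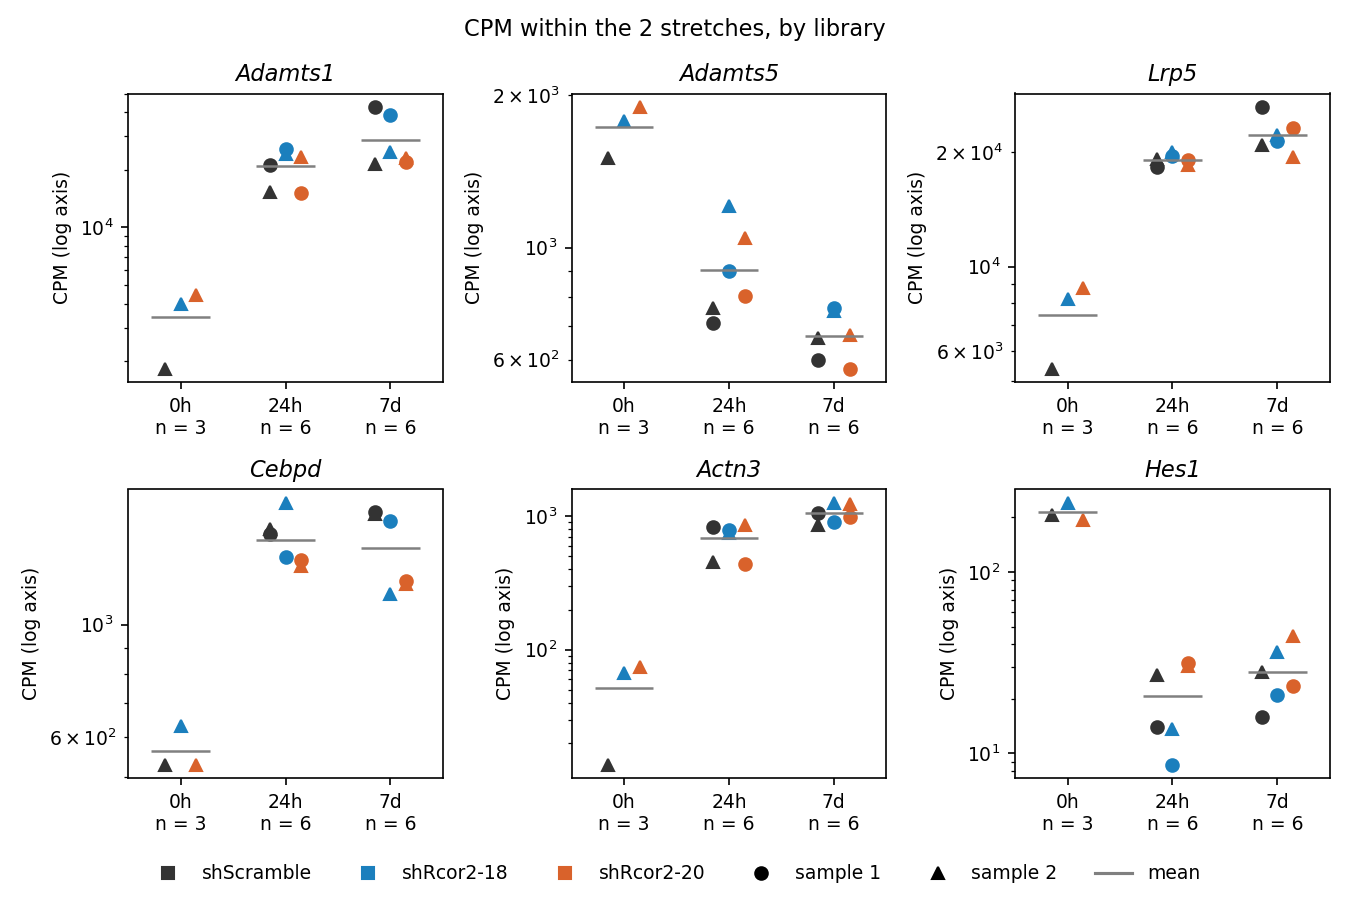
CPM on a log axis at 0h (3 libraries), 24h (6) and 7d (6) for Adamts1, Adamts5, Lrp5, Cebpd, Actn3 and Hes1, with colour for the construct, shape for the sample number and a grey line for the mean. In each panel the 24h libraries lie wholly on 1 side of the 0h libraries, and the shScramble library at 0h lies well below the other 0h libraries for Adamts1, Lrp5 and Actn3.

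Of the 14 genes tested from the transcription factor list, 1 rose and 4 fell, where 2.45% of all genes tested rose and 3.27% fell. A negative log2 change was found in 11 of the 14 and in 230 of all 489 genes, and the medians were -0.64 and 0.02. The list was chosen with results of these data known, and its members Cebpd and Hes1 are markers chosen from these data. Factors kept in other lists were not counted, such as Batf2 (log2 change 0.68), Bbx (0.39) and Rela (-0.28). These shares therefore do not describe all factors of the stretches. The riser was Cebpd, a C/EBP family factor known to respond to glucocorticoids, at 528, 632 and 529 CPM at 0h and 1511 and 1549, 1360 and 1743, and 1344 and 1305 CPM at 24h. No libraries overlapped, and the 0h values of the constructs were close. The log2 change was 1.38 ± 0.13, 2.61-fold (edgeR adjusted p = 0.000103). Cebpd overlaps Spidr on the other strand, and whether counting used strand is not given, so their reads cannot be told apart. The other glucocorticoid-responsive factor tested, Bcl6, a zinc finger repressor, had a log2 change of -0.68 ± 0.20 with overlapping libraries (edgeR adjusted p = 0.0909).

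The factors that fell besides Hes1 were Etv5, Runx1 and Glis2. Etv5, an ETS factor downstream of fibroblast growth factor signalling, had 780, 806 and 722 CPM at 0h and 364 to 502 CPM at 24h (median 409). Its libraries did not overlap and its log2 change was -0.86 ± 0.15 (edgeR adjusted p = 0.00731). Runx1, a Runt domain factor of blood and skeletal progenitors, had 1042, 1273 and 1122 CPM at 0h and 523 to 762 CPM at 24h (median 692), again without overlap. Its log2 change was -0.81 ± 0.19 (edgeR adjusted p = 0.0267), and the call was lost in 5 of 9 fits that left out 1 library each (highest adjusted p = 0.119). Glis2, a Krüppel-like zinc finger factor, had 3833, 3329 and 3130 CPM at 0h and 1954 to 2333 CPM at 24h (log2 change -0.66 ± 0.14, edgeR adjusted p = 0.0154; 0.0603 without shScramble at 0h). Glis2 overlaps the mitochondrial import gene Pam16 on the other strand, and Runx1 an antisense gene, so these reads cannot be told apart either. Fosl1, a FOS family member, and Snai2, a repressor of epithelial genes, were not called, at -0.86 ± 0.28 (edgeR adjusted p = 0.128) and -0.62 ± 0.25 (0.224) on the log2 scale. Fosl1 overlaps Ccdc85b, a coiled-coil protein gene that did fall (-0.67 ± 0.16, edgeR adjusted p = 0.0391), and that call was lost in 6 of the 9 fits.

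Actn3, the α-actinin of fast skeletal muscle Z-discs, had the largest rise of the 489 genes. It had 13.7, 67.0 and 74.6 CPM at 0h and 837 and 454, 794 and 748, and 436 and 867 CPM at 24h. The shScramble library at 0h was well below both hairpin libraries, and all were far below the 24h libraries. The log2 change was 4.06 ± 0.35, 16.7-fold (edgeR adjusted p = 8.34e-05), and 3.28 without that library (adjusted p = 0.000931). Actn3 was the single call among 13 contractile and actin genes tested, beside 5.73% called among all genes tested. The median log2 change of the 13 was 0.07. Fbxo40, a muscle ubiquitin ligase subunit, was at 53.6 to 82.1 CPM at 0h and 120 to 770 CPM at 24h, without overlap but with a wide spread (log2 change 2.46 ± 0.76, edgeR adjusted p = 0.124). Cofilin (Cfl1) had a log2 change of -0.01 ± 0.10 and smooth muscle myosin (Myh11) -0.58 ± 0.28. The 5 skeletal muscle markers of the stretches summed to 335 to 379 CPM at 0h and 1013 to 1775 CPM at 24h, Actn3 and Fbxo40 included. Among them Myh15 was at 0 in all 9 libraries and Srl had a log2 change of 0.23 ± 0.23.

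Genes of secreted proteases and matrix moved both ways. Of 15 tested, Adamts1 and Vasn rose and Adamts5, Ccdc80, Lrrc15 and Efemp2 fell, beside 2.45% and 3.27% of all genes tested. The median log2 change was -0.07. This list too was chosen with results of these data known, and Adamts1 is a marker chosen from these data. Ccdc80, a matrix-bound protein of mesenchymal cells, had 12972, 12953 and 13275 CPM at 0h and 5171 to 7353 CPM at 24h (median 6328). The 0h values were nearly equal and no 24h library came near them (log2 change -1.05 ± 0.18, edgeR adjusted p = 0.00819). Efemp2, which encodes fibulin-4 of elastic fibres, had 25369, 34031 and 34139 CPM at 0h and 18986 to 23159 CPM at 24h, a log2 change of -0.55 ± 0.10 (edgeR adjusted p = 0.00884). It overlaps Mus81, and its call was lost with sample 1 at 0h included. Lrrc15, a membrane protein of stromal fibroblasts whose promoter is printed above, had 751 CPM with shScramble at 0h and 381 and 362 CPM with the hairpins, against 150 to 277 CPM at 24h (median 208). Its log2 change was -1.20 ± 0.23 (edgeR adjusted p = 0.0105) and, without the high shScramble library, -0.87 (0.125). Vasn, vasorin, which binds transforming growth factor β, went from 6180, 7439 and 7241 CPM to between 8466 and 10266 CPM (log2 change 0.42 ± 0.10, edgeR adjusted p = 0.0258). Vasn lies within the span of Coro7 and Dnaja3, and its call was lost in 5 of the 9 fits.

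The 6 stromal and fibroblast markers share 3 of those calls, all downward, beside 3.27% called lower among all genes tested. They summed to 51738 to 64889 CPM at 0h and to 41641 to 50542 CPM at 24h. Cd248, a surface marker of stromal cells, had a log2 change of -0.31 ± 0.15 (edgeR adjusted p = 0.32) and the follistatin-like gene Fstl1 0.39 ± 0.21 (0.36). Of markers of other cells, Cldn5 of endothelium and the lymphoid genes Cd86 and Trat1 had no count in the 9 libraries, as had 6 of 10 neural markers. Others of these lists were well counted. Gp1bb of the endothelial list had means of 1404 CPM at 0h and 1527 CPM at 24h. The lymphoid genes Cd80 and Ptprcap had 1420 and 335 CPM at 0h, and 1473 and 401 CPM at 24h. The 4 genes of the endothelial list summed to 1318 to 1507 CPM at 0h and 1370 to 1706 CPM at 24h. Nearly all of that was Gp1bb. Jam2 of that list had means of 6.13 CPM at 0h and 6.23 CPM at 24h, and the higher mean of Gp5 was 7.36 CPM, at 24h. The sum is therefore the level of Gp1bb and does not show expression of endothelial genes as a set. Whether Gp1bb marks endothelium was not tested. The 7 liver markers summed to 2883 to 3187 CPM at 0h and 2972 to 4556 CPM at 24h. Most of that was Masp1, which is also in the protease and matrix list, with means of 2700 and 3459 CPM. Masp1 was not called (log2 change 0.36 ± 0.16, edgeR adjusted p = 0.256). The 13 lymphoid markers summed to 1721 to 1986 CPM at 0h and 1872 to 2098 CPM at 24h, and the 10 neural markers to 10.8 to 15.9 and 6.32 to 31.1 CPM. The 7 epithelial markers, Pkp2 among them, summed to 637 to 726 CPM at 0h and 367 to 455 CPM at 24h. Of the 4 tested, 2 had a positive and 2 a negative log2 change, with a median of 0.02. The changes were -1.29 for Pkp2, -0.51 for Cldn1, 0.55 for Ppl and 3.03 for Muc13, the last from a mean of 1.92 CPM at 0h. Of these 4, Pkp2 alone was called. The part of other cell types in these results was not tested.

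**Figure D4:**
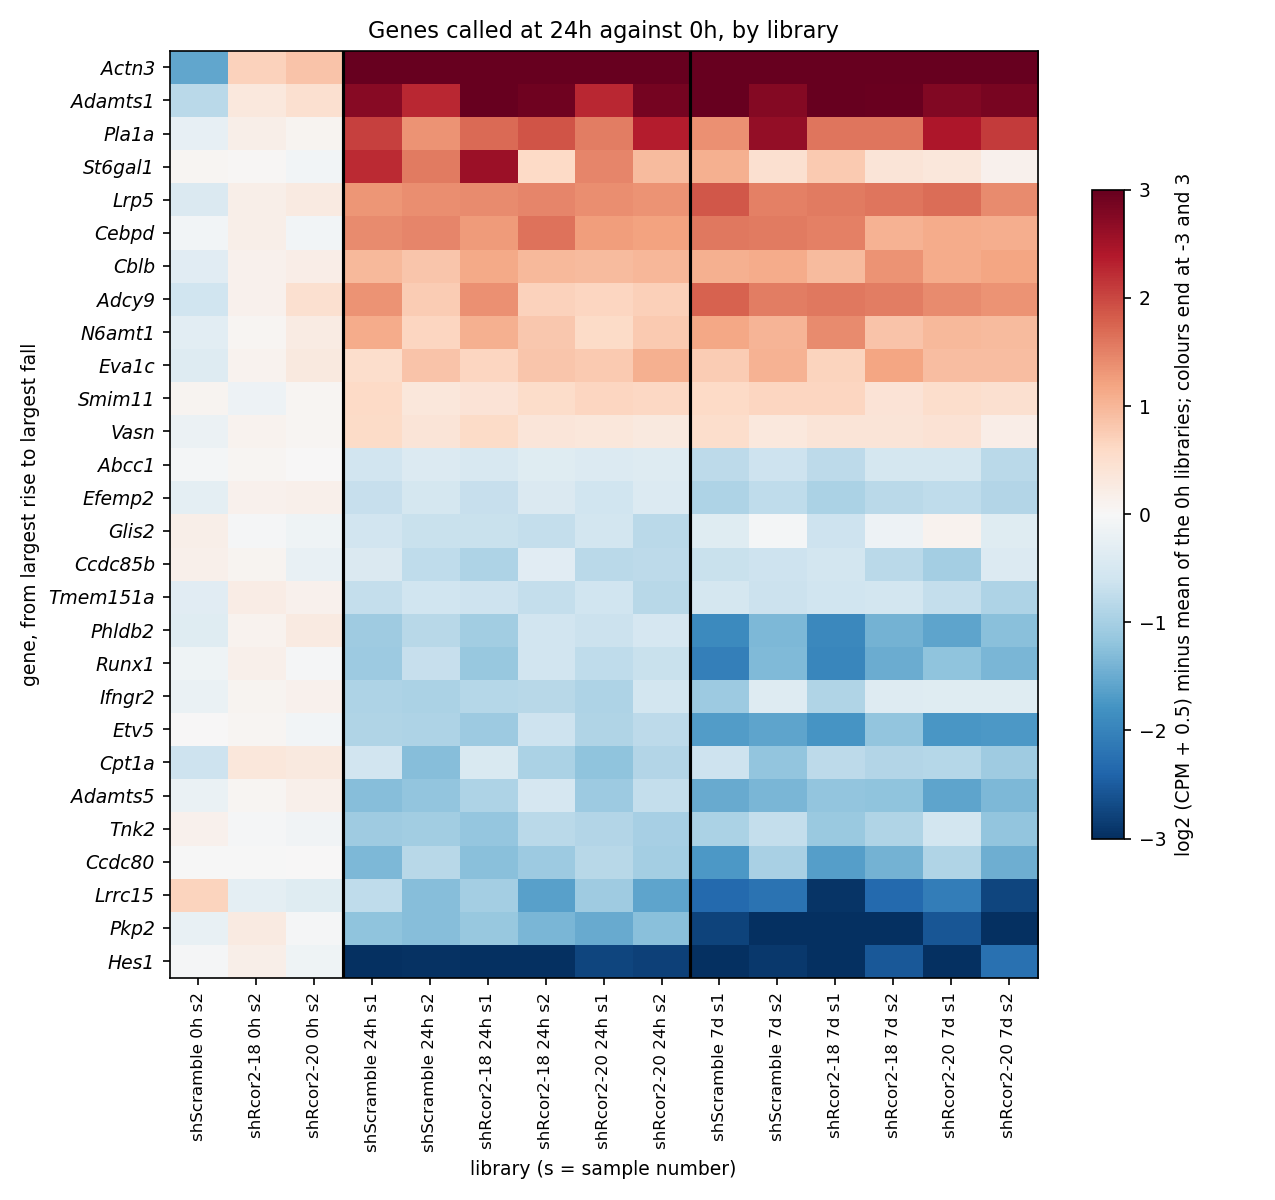
Log2 of CPM + 0.5 relative to the mean of the 0h libraries (colour, ending at -3 and 3) for the 28 called genes (rows, from the largest rise to the largest fall) in 3 libraries at 0h, 6 at 24h and 6 at 7d (columns; s, sample number). The 12 risers are red and the 16 that fell are blue across the 24h columns, and the shScramble column at 0h departs from its 2 neighbours in Actn3, Adamts1 and Lrrc15.

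Receptor and kinase signalling gave calls in both directions. Cblb, a ubiquitin ligase that dampens tyrosine kinase receptors, rose from 595, 823 and 865 CPM to between 1327 and 1642 CPM (median 1478). The 24h libraries were tight and clear of all 0h libraries (log2 change 0.98 ± 0.11, edgeR adjusted p = 0.000365). Tnk2, a non-receptor tyrosine kinase that binds CDC42, fell from 2159, 1920 and 1839 CPM to between 878 and 1121 CPM (median 970), by 0.99 ± 0.14 on the log2 scale (edgeR adjusted p = 0.0021). It shares its position with the antisense gene Tnk2os. Among 14 growth factor and MAP kinase genes, Tnk2 and Etv5 were the calls, both downward, beside 3.27% called lower among all genes tested. The median log2 change of the 14 was -0.02, and this list too was chosen with results known.

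Adcy9, an adenylyl cyclase that makes cAMP, rose from 211, 348 and 443 CPM to between 499 and 833 CPM (median 533). The 24h values of shScramble sample 1 and shRcor2-18 sample 1, 808 and 833 CPM, stood above the other 4, and the shScramble value was the lowest at 0h. Its log2 change was 0.95 ± 0.18 (edgeR adjusted p = 0.0115) and 0.64 without shScramble at 0h (0.151). Ifngr2, a chain of the interferon-γ receptor, fell from 945, 1160 and 1190 CPM to between 563 and 745 CPM (log2 change -0.84 ± 0.17, edgeR adjusted p = 0.0129). It was the single call among 9 interferon response genes, beside 5.73% called among all genes tested. Ifnar1, of the type I receptor on the same stretch, had a log2 change of 0.01 ± 0.09.

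Among 10 lipid genes 1 rose and 1 fell, beside 2.45% and 3.27% of all genes tested. A positive log2 change was found in 9 of the 10 and in 259 of all 489 genes, and the median was 0.25. Pla1a, a secreted phospholipase, was low at 0h, with 31.3, 42.1 and 39.5 CPM, and reached 95.8 to 193 CPM at 24h (median 131), a log2 change of 1.86 ± 0.36 (edgeR adjusted p = 0.0112). Cpt1a, the carnitine palmitoyltransferase that admits fatty acids to mitochondria, had 2224 CPM with shScramble at 0h, and 4322 and 4199 CPM with the hairpins. At 24h it had 2312 and 1408, 2493 and 1764, and 1478 and 1851 CPM, so that the shScramble value at 0h lay inside the 24h range. Its log2 change was -0.87 ± 0.18 (edgeR adjusted p = 0.0179), -0.30 with shScramble, -1.04 with shRcor2-18 and -1.34 with shRcor2-20. The call was lost without the 0h library of either hairpin or without shRcor2-20 sample 1 at 24h. Apod, a lipid-binding apolipoprotein, was not called at 24h (log2 change 1.62 ± 0.74, edgeR adjusted p = 0.281).

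St6gal1, a sialyltransferase of the Golgi, had close values of 97.8, 95.7 and 87.8 CPM at 0h and scattered ones of 442 and 276, 560 and 143, and 261 and 180 CPM at 24h. The groups did not overlap, but the 24h libraries were spread widely, with shScramble sample 1 and shRcor2-18 sample 1 on top, the same that were highest in Adcy9. Its log2 change was 1.69 ± 0.42 (edgeR adjusted p = 0.0391), and the call was lost in 6 of the 9 fits that left out 1 library each. With sample 1 at 0h included its log2 change was 0.90, and the call was lost there too. Abcc1, an export pump, went from 3557, 3819 and 3710 CPM to between 2478 and 2876 CPM (log2 change -0.44 ± 0.10, edgeR adjusted p = 0.022), a call lost in 5 of the 9.

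Pkp2, the plakophilin of desmosomes, fell from 272, 377 and 305 CPM to between 111 and 142 CPM (median 131), by 1.29 ± 0.24 on the log2 scale (edgeR adjusted p = 0.00988). It was the single call among 9 junction and adhesion genes, beside 5.73% called among all genes tested. The median log2 change of the 9 was -0.05. Phldb2, which anchors microtubules at the cell cortex, had 3489, 4851 and 5395 CPM at 0h and 2141 to 3156 CPM at 24h, a log2 change of -0.77 ± 0.17 (edgeR adjusted p = 0.0192; lost in 3 of the 9 fits and with sample 1 at 0h included, where the log2 change was -0.46). The membrane protein gene Tmem151a had 747 CPM with shScramble at 0h, 1095 and 1029 CPM with the hairpins, and 533 to 628 CPM at 24h (-0.67 ± 0.11, edgeR adjusted p = 0.00446). Eva1c, a membrane protein gene whose promoter is printed above, rose from 145, 203 and 233 CPM to between 276 and 398 CPM (0.79 ± 0.17 on the log2 scale, edgeR adjusted p = 0.0193). Smim11, a small membrane protein gene, rose from 419, 352 and 410 CPM to between 501 and 616 CPM (0.53 ± 0.12, 0.022). Neither overlapped between the times. Eva1c lost its call in 2 and Smim11 in 5 of the 9 fits. Phldb2, Tmem151a, Eva1c and Smim11 each overlap at least 1 antisense gene.

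Lists of basic cell functions held no called gene, which in lists this short is close to the 5.73% called among all genes tested. None of 18 DNA replication and repair genes passed, and 13 had a negative log2 change (230 of 489 over all genes), with a median of -0.11. Mcm4, of the replicative helicase, was at 5421, 3624 and 3567 CPM at 0h and 1933 to 4046 CPM at 24h, with overlap. The 2 lowest 24h libraries, at 2184 and 1933 CPM, were shScramble sample 1 and shRcor2-18 sample 1, the same that were highest in Adcy9. Cdc45, of the same helicase, was lowest in that pair as well, at 345 and 375 CPM against 608 to 709 CPM in the other 4. None of 19 mitochondrial genes (median log2 change 0.12), of 12 translation and proteasome genes (-0.02) or of 13 chromatin coregulator genes (0.08) passed. Bone biology genes gave 3 rises (Lrp5, Adamts1 and Cebpd) and 1 fall (Runx1) among 10, beside 2.45% and 3.27% of all genes tested, and the 3 that rose had been chosen as markers from these data. The proton pump gene Tcirg1 had a log2 change of -0.13 ± 0.14 and the latent TGF-β binding protein gene Ltbp3 -0.09 ± 0.17.

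**Figure D5:**
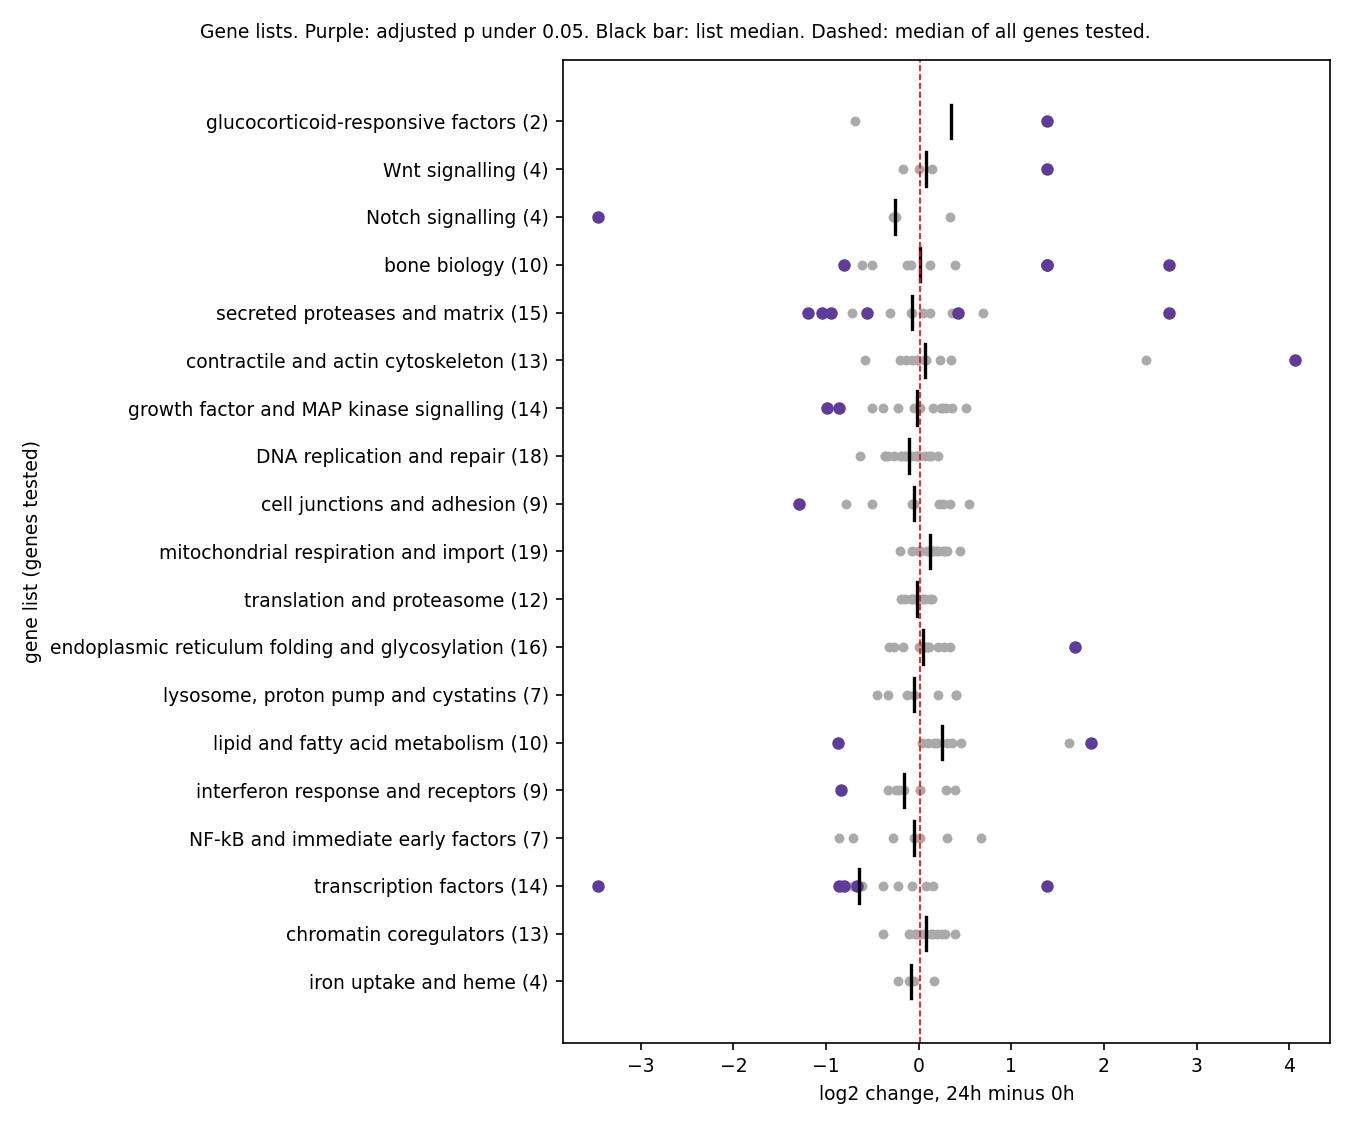
Log2 change from 0h to 24h (x axis) of each gene tested in 19 gene lists (y axis, with the number tested), called genes in purple, list medians as black bars and the median of all 489 genes as a dashed line. The transcription factor list has its median at -0.64, and the translation and mitochondrial lists hold no called gene. All lists were chosen with results of these data known.

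The hairpins were compared with shScramble in how much each gene changed from 0h to 24h. No gene of the 489 passed (0% called; 12 at unadjusted p below 0.05, lowest edgeR adjusted p = 0.996), nor did any in DESeq2. With the replicate block 1 gene passed in edgeR, Serpind1. For Adamts1 the log2 change was 3.31, 2.64 and 2.08 in the 3 constructs, for Lrp5 1.80, 1.27 and 1.10, for Actn3 5.44, 3.51 and 3.03, and for Cebpd 1.53, 1.28 and 1.32. In each of the 4 genes shScramble had the largest rise and the lowest value at 0h, where it rests on 1 library. For Cebpd the 0h values of shScramble and shRcor2-20 were nearly equal, at 528 and 529 CPM. For Hes1 the values were -3.39, -4.41 and -2.63, and they rest on few counts at 24h. Each construct has a single 0h library here, and the absence of a call does not show that the constructs responded alike.

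The 7d libraries show where the levels went next, in a comparison that shares the 24h libraries with the one above. From 24h to 7d, 83 genes were called (17%), 42 higher (8.59%) and 41 lower (8.38%; edgeR). With the replicate block the counts were 74 and 80, and without 1 library at 24h they were 20 to 36 and 23 to 31, with the fewest calls (20 and 23) without shRcor2-20 sample 1. Adamts1 had 21535 to 42778 CPM at 7d (median 23877), Lrp5 19476 to 26371 (21844) and Cebpd 1152 to 1670 (1415), and none of them passed from 24h to 7d. Hes1 was at 15.95 to 44.5 CPM at 7d (log2 change from 24h 0.53 ± 0.31, edgeR adjusted p = 0.274), and Actn3 had 853 to 1264 CPM (0.61 ± 0.20, 0.0671).

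Several genes that fell by 24h had lower levels again at 7d. Pkp2 was at 22.9 to 53.2 CPM at 7d, a log2 change from 24h of -1.87 ± 0.23 (edgeR adjusted p = 0.000662). Lrrc15 was at 60.7 to 110 CPM (-1.22 ± 0.21, adjusted p = 0.00518), and Etv5 at 226 to 337 CPM (-0.74 ± 0.13, 0.00578). Phldb2, Runx1, Adamts5 and Efemp2 changed by -0.78, -0.74, -0.42 and -0.29 on the log2 scale (edgeR adjusted p between 0.00639 and 0.0349). Glis2 rose again to 2237 to 3666 CPM (0.44 ± 0.11, 0.0255). St6gal1 fell back to 102 to 198 CPM (-1.14 ± 0.31, edgeR adjusted p = 0.0323), near the 87.8 to 97.8 CPM of 0h, and Adcy9 rose further to 818 to 1082 CPM (0.59 ± 0.14, 0.0218). Apod, not called at 24h, rose from 84.0 to 324 CPM at 24h to between 1116 and 6021 CPM at 7d (4.15 on the log2 scale, edgeR adjusted p = 0.00157).

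The genes nearest to the threshold without passing it at 24h were, upward, Col8a1, a short-chain collagen (log2 change 0.53 ± 0.15), Mylk, myosin light chain kinase (0.35 ± 0.10), and Tango2 (0.54 ± 0.15), each with an edgeR adjusted p of 0.0817. Downward they were the transporter gene Abcc5 (-0.42 ± 0.12, 0.0817), Ydjc (-0.95 ± 0.28, 0.0902) and Bcl6, given above. The called genes nearest inside it were Ccdc85b and St6gal1, at 0.0391. From 24h to 7d Col8a1 and Mylk rose by 0.56 and 0.61 on the log2 scale (edgeR adjusted p = 0.0141 and 0.00109).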

How the data were processed

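Raw counts of reads per gene were deposited by the authors as a single table for the 18 libraries. The submitters' processing notes list FastQC, TopHat2 2.0.9, the build mm9, DESeq and DESeq2. How reads were counted, whether strand was used and on which annotation: not given in the sources used here. Identifiers were looked up in GENCODE vM21 (39547 of 40620 found, 97.4%), which served for names, types and gene order only. Groups came from the sample titles.

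Counts of the 744 rows were filtered (filterByExpr over the 9 groups), scaled by TMM within these rows and fitted in edgeR 4.0.16 (R 4.3.3; glmQLFit with robust dispersions, glmQLFTest). The model had 9 group means over 15 libraries and 6 residual degrees of freedom, so the lone 0h library of a construct is taken to vary as the other groups do. Contrasts average the 3 constructs, with Benjamini-Hochberg adjustment over 489 genes and a threshold of 0.05. The SE is the size of the log2 change over the root of F.

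Named genes are all called genes, the markers Adamts1, Lrp5, Cebpd, Hes1 and Actn3, list members as examples, and the genes nearest the threshold. Members and lists were chosen with earlier results of these data known, and Serpind1, Btla, Apod, Mcm4 and Cdc45 were singled out after their values were seen. For the replicate block, sample numbers were taken to pair 24h with 7d, and the 0h libraries used counted as sample 2 of the same pairs. The pairing was read from the data and is stated in no label. With the block, the change from 0h to 24h is therefore set at the level of sample 2. Differences between samples 1 and 2 of a construct at 24h and at 7d correlated at 0.44, 0.37 and 0.22 across genes. Between 0h, with sample 1, and 24h they correlated at 0.21, 0.15 and 0.15. Such differences were not compared between constructs, so these values do not show that paired samples came from the same culture. Alternatives were other normalizations, no filter, DESeq2 1.42.0, other designs with and without a replicate block, sample 1 at 0h included, each chromosome alone, all rows together, and leaving out each library. With no statement of separate cultures, p-values measure only how these samples spread, and that spread may be technical.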

Additional observations from a re-analysis of the deposited data

Results flagged for a closer look

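Ifngr2, the interferon-γ receptor chain that fell from 0h to 24h, had 1 library away from the others of its time. Its level was 745 CPM in shRcor2-20 sample 2 at 24h and 563 to 617 CPM in the other 5 libraries, a gap larger than Dixon's 95% limit for 6 values. Chance alone marks about 1 in 20 such groups, and each called gene was looked at. The 745 CPM still lay below the lowest 0h value of 945 CPM.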

How the results depend on the processing

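No called gene changed direction in any of the 15 other settings or the 9 fits without 1 library, and 15 of the 28 kept their call in all 9 of those fits. Other normalizations (RLE, library size of the stretches, total of all rows), no filter on low counts and no robust dispersions left the counts at 12 higher and 16 lower, with all 28 genes shared. From 12, the count of higher genes moved to 20 in DESeq2, 26 with 9 libraries and 2 time means, 23 with the replicate block, 30 with sample 1 at 0h included and 7 with all rows tested together. From 16, the count of lower genes moved to 27, 34, 32 and 6 in the last 4 of these settings in that order, and to 32 with sample 2 alone. Leaving out 1 library gave 7 to 13 higher and 11 to 19 lower genes, 7 without shScramble at 0h. Testing all 12930 rows together, which changes the scaling, the dispersions and the adjustment, lost 15 calls (Ccdc80, Pkp2, Lrrc15, Pla1a, Ifngr2, Glis2, Cpt1a, Phldb2, Eva1c, Smim11, Abcc1, Vasn, Runx1, Ccdc85b and St6gal1, adjusted p between 0.0573 and 0.147), with log2 changes of -1.07 for Ccdc80 and -1.32 for Pkp2. The construct difference went from 0 genes to 1 with the replicate block. The count from 24h to 7d went from 42 higher and 41 lower to 74 and 80 with the block, and to 20 to 36 and 23 to 31 when 1 library at 24h was left out; both counts moved by over 1.5 times without shScramble sample 2 (21 and 24), shRcor2-20 sample 1 (20 and 23) or shRcor2-20 sample 2 (24 and 23), and 1 of them without shScramble sample 1 (27 higher) or shRcor2-18 sample 2 (27 lower). The cause of these shifts was not tested. Depth limits genes under about 20 CPM, where 1 library holds few counts.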

Other observations

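Serpind1, a clotting inhibitor made by liver, was counted in some libraries and not in others, across times and constructs. It was singled out after its values were seen. At 0h it had 0 counts with shScramble (3 counts, the limit that a count of 0 allows, would be 5.96 CPM) and 107 and 116 counts with the hairpins. At 24h the shScramble samples had 8 and 135 counts, the shRcor2-18 samples 67 and 0, and both shRcor2-20 samples 0. At 7d the same 3 pairs had 2 and 146, 0 and 0, and 2 and 115 counts. The 2 samples of 1 construct and time thus differed between near absence and over 100 counts in 3 pairs of these groups, shScramble at 24h and 7d and shRcor2-20 at 7d. The cause was not tested.

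Over all rows of the table, the same fit called 190 higher and 50 lower at 24h of 12930 tested, and rows outside the stretches are not named here. Inside them, Btla, a lymphoid receptor gene, went from 13.4 to 29.3 CPM at 0h and 25.4 to 91.8 CPM at 24h to 160 to 576 CPM at 7d (log2 change from 24h 2.48, edgeR adjusted p = 0.00735). It was chosen after its values were seen, and the cause was not tested.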
